A study of Rattus norvegicus with 20 samples.

Results

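The comparison was between sprouting and non-sprouting cortical neurons of the same aged rat, in the cohort labelled day 7. Its members were the samples labelled day 7, replicates 1 to 5, which are 10 of the 20 arrays and 5 of the 10 animals of the series. All animals were rats aged 2 years with a stroke, and the 2 arrays of an animal held its RNA pair in opposite dye orientations. In each rat a pair of cholera toxin B tracers with different fluorescent labels (CTb-Alexa 488 and CTb-Alexa 647) had been injected one after the other at a single place in the cortex beside the infarct. The later tracer followed a survival period of 7 days in this cohort. About 300 neurons of each cell type were then taken by laser capture, 7 days after the later injection, and their RNA was amplified in a pair of T7 rounds before indirect Cy dye labelling. The labels call the captured cells sprouting or non-sprouting neurons. Which tracer pattern defined them, and the strain and sex of the rats, are not given in the sources used here. The labels give each replicate its own animal number, so the replicates are separate animals.

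After a stroke, surviving neurons next to the dead tissue grow new axon branches into neighbouring cortex, a form of regrowth that adult neurons otherwise rarely show. A retrograde tracer such as cholera toxin B is taken up by axon endings and carried back to the cell body, so tracers given at separate times can mark neurons whose axons reached the place at different times. Growing axons draw on membrane lipid synthesis, growth factors and the cytoskeleton, while microglia and invading macrophages clear debris around the infarct and can lie against the neurons that are captured.

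Each value is a log2 ratio of the sprouting over the non-sprouting channel, averaged over the forward and the dye-swap array of an animal, so n is at most 5 and an animal is named by its replicate number. A feature is 1 probe per named gene, or a probe without a gene name, and 31081 features were measured well enough to be tested. Between 51.3% and 95.4% of probes were well above background in a channel. The forward and the swap array of an animal, which share the same RNA, correlated across features at r = 0.888 and 0.800 in replicates 1 and 2, but at 0.523, 0.328 and 0.337 in replicates 3, 4 and 5. The SD of the ratios was 0.371 and 0.274 in replicates 1 and 2, and 0.149, 0.139 and 0.138 in the others. Replicates 1 and 2 therefore carry most of the large ratios. Between animals the correlation across features was -0.12 to 0.24, and the lowest value was that between replicates 1 and 2.

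No feature passed limma's test at an adjusted p of 0.05, which is 0% of the features tested, and the smallest adjusted p was 0.117, for Ccdc171. At an unadjusted p under 0.05 there were 1904 features (6.13%), where the threshold alone would give 1554. Of these, 1064 (3.42%) had a higher mean in sprouting neurons and 840 (2.70%) a lower one. A value above 0 in 5 of 5 animals was found for 1517 features (4.88%), a value below 0 in all of them for 1685 (5.42%), and 1 sign on all 10 arrays for 632 (2.03%). With arrays entered singly, animals as a random block and a term for the dye, limma called 13 features, and the swap arrays alone called 15. In everything that follows, a gene is described by its values, and no gene is said to have risen or fallen. In these pools a difference in how many cells of a type were captured and a difference in RNA per cell cannot be told apart.

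The secreted proteins Spp1 and Igf1 led the 12 named genes of highest mean ratio that had 1 sign on all 10 arrays. Spp1 encodes osteopontin, a matrix phosphoprotein that neurons, microglia and macrophages can all make. Its ratio was 3.79, 3.37, 2.51, 3.36 and 0.33 in replicates 1 to 5, a mean of 2.67 ± 1.39 (SD, n = 5), with a limma adjusted p of 0.39. The sprouting channel read 14.66, 11.08, 9.08, 11.05 and 6.81 on the log2 intensity scale, against 10.86, 7.71, 6.57, 7.69 and 6.475 in the non-sprouting channel. Replicate 5 stood near the lowest level in both channels, and replicate 1 was highest in both, with the sprouting channel saturated on both of its arrays, so that 3.79 is a lower bound. Each animal had the higher level in its sprouting channel, but across animals the levels of the cell types overlapped.

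Igf1, an insulin-like growth factor that acts on neurons and glia, had ratios of 3.37, 0.97, 0.86, 0.49 and 0.25, with a mean of 1.19 ± 1.25 (SD, n = 5) and a limma adjusted p of 0.71. Its level in the non-sprouting channel stayed between 9.005 and 9.996, while the sprouting channel ran from 9.255 to 12.77. The spread between animals therefore lay mostly in the sprouting channel, and replicate 1 stood apart. Without replicate 1 the mean was 0.64.

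Of the 59 growth factors and receptors tested, 4 were above 0 in all 5 animals and 1 below, and 7 lay past unadjusted p under 0.05 on the higher side, with a list median of -0.002. Counts on both sides are to be read against the 4.88%, 5.42% and 3.42% of all features.

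**Figure D1:**
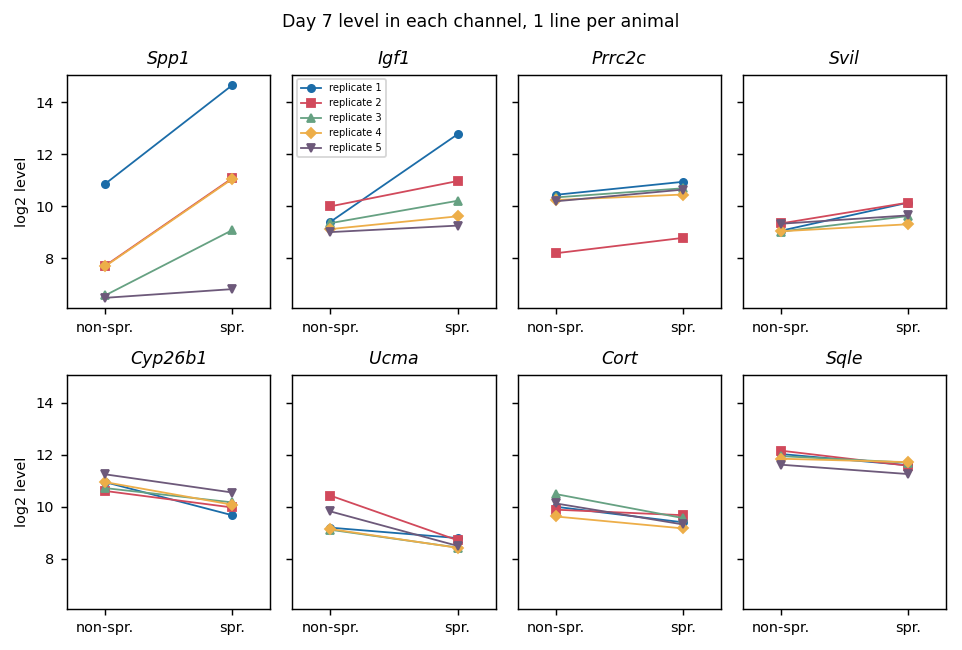
Log2 level in the non-sprouting and the sprouting channel (vertical axis) for 8 genes, with 1 line per animal joining its cell types. Spp1 and Igf1 spread widely between animals, while Cyp26b1 and Ucma show sprouting and non-sprouting levels that do not overlap.

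Among the other genes with a positive ratio, several are known from the cytoskeleton and from membranes. Svil, supervillin, ties actin to the plasma membrane, and its ratio was 1.08, 0.80, 0.60, 0.27 and 0.32, a mean of 0.62 ± 0.34 (SD, n = 5). Its sprouting level of 9.31 to 10.14 barely reached into the non-sprouting range of 9.02 to 9.34. Kcnd2, an A-type potassium channel subunit of dendrites, had a mean of 0.42 that leaned on replicate 2, at 1.36, with 0.044 to 0.38 in the other animals. Prrc2c was the most even of the 12 genes, at 0.49, 0.59, 0.36, 0.21 and 0.44, a mean of 0.42 ± 0.15 (SD, n = 5) and a limma adjusted p of 0.39. Its level in replicate 2 was 8.78 and 8.19 in the sprouting and the non-sprouting channel, lower than the 10.19 to 10.94 of every other animal, yet the ratio there was the highest of the 5. The transcription factor Lhx9 had a mean of 0.43 and Rbpjl2 one of 0.52. That each of these genes was above 0 in every animal was a condition of their choice. Rbpjl2 had 1.34 in replicate 1 and 0.063 to 0.70 in the others, and a mean of 0.31 without replicate 1.

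Further genes of the higher side had their highest ratio in replicate 1. Tlr2, a receptor for microbial and danger signals that microglia express, had 1.10, 0.44, 0.16, 0.44 and 0.13. It was above 0 on all 10 arrays, as its choice required. Melk, a kinase linked to cell division, had 1.42 in replicate 1 and 0.062 to 0.38 in the others, and Sat1, which acetylates polyamines, had 1.44 against 0.078 to 0.35.

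**Figure D2:**
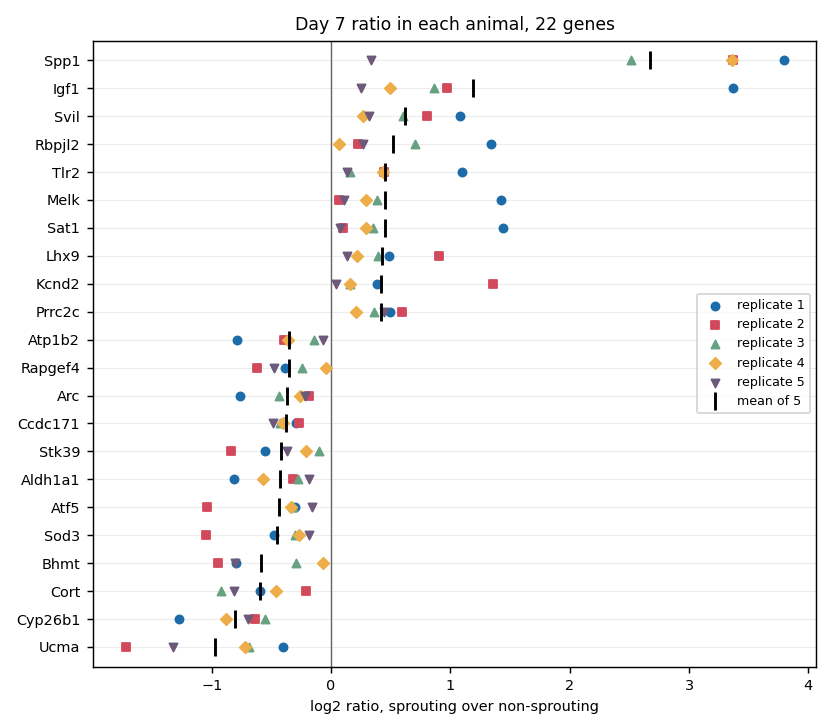
Log2 ratio of sprouting over non-sprouting neurons (horizontal axis) in each of the 5 animals for 22 of the 24 genes of the naming rule, with the mean as a bar. All points of a gene lie on 1 side of 0 by the rule. Replicate 1 stands far from the other animals for Igf1, Melk and Sat1. It is also the point farthest from 0 for other genes, among them Spp1, Svil, Tlr2 and Cyp26b1.

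The lowest mean ratios by the naming rule were those of Ucma and Cyp26b1. Ucma, a vitamin K dependent protein of cartilage matrix, had ratios of -0.40, -1.72, -0.69, -0.72 and -1.33, a mean of -0.97 ± 0.54 (SD, n = 5) and a limma adjusted p of 0.62. The sprouting channel read 8.41 to 8.79 in all animals, while the non-sprouting channel read 9.11 to 10.42. The cell types did not overlap, and the differences between animals lay in the non-sprouting channel.

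Retinoic acid is made from vitamin A by the Aldh1a enzymes, removed by the Cyp26 enzymes, and acts through nuclear receptors that change transcription, among them those of neurite growth. Cyp26b1, the form that removes retinoic acid in the adult brain, had ratios of -1.28, -0.64, -0.56, -0.88 and -0.70, a mean of -0.81 ± 0.29 (SD, n = 5) and a limma adjusted p of 0.41. Its sprouting level was 9.665 to 10.54 and its non-sprouting level 10.6 to 11.24, with no overlap between cell types. The related remover Cyp26a1 had -0.82, -0.13, -0.35, -0.17 and -0.032, a mean of -0.30.

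The synthesising enzymes lay on the same side. Aldh1a1 had ratios of -0.81, -0.32, -0.28, -0.57 and -0.18, a mean of -0.43 ± 0.26 (SD, n = 5), and Aldh1a2 had -0.028, -0.079, -0.97, -0.30 and -0.076. The mean of Aldh1a2, at -0.29, rested largely on replicate 3. Rxrg, a retinoid X receptor, was above 0 in 5 of 5 animals with a mean of 0.27 and its highest value, 0.74, in replicate 4. Of the 19 retinoic acid genes tested, 4 were below 0 in all animals and 1 was above 0 in all of them (5.42% and 4.88% of all features). Past the unadjusted threshold 3 lay on the lower side and none on the higher (2.70% and 3.42% of all features), with none past limma's adjusted threshold. The list median was -0.039, close to the -0.002 of all features.

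Cyp26a1 is a classical target of retinoic acid itself, through paired receptor half-sites in its promoter. The 250 bases before its start are shown because they hold such a pair, in the RefSeq annotation of GRCr8 at chr1:244883572-244883821, plus strand. Capitals mark a pair of AGTTCA half-sites with 5 bases between them, found on the opposite strand, and so written here as TGAACT.

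Cyp26a1: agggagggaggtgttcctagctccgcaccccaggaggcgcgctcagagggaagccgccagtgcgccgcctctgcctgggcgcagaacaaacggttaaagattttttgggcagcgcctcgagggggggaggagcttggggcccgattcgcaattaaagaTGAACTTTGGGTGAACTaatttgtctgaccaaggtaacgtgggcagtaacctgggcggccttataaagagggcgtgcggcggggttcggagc

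The pattern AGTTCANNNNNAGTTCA, searched on both strands over 300 bases that end 50 bases after the start, was found in 3 of 33469 RefSeq rat promoters (0.00896%), and in 1 of the 18 retinoic acid genes that had a promoter in that table. The match describes the letters only, and no binding was measured.

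Of the immediate early genes, whose expression follows neuronal firing, 21 of 35 had a mean below 0 and 14 above. Arc, which regulates glutamate receptors at active synapses, had -0.76, -0.18, -0.44, -0.26 and -0.22, a mean of -0.37 ± 0.24 (SD, n = 5). Vgf, the precursor of several secreted peptides, had -1.06, -0.056, -0.72, -0.21 and -0.45, and Egr1, an activity-induced transcription factor, had -0.42, -0.23, -0.022, -0.29 and -0.15. All 3 were below 0 in every animal, although Vgf and Egr1 were each above 0 on 1 of the 10 arrays. Among the 35 immediate early genes tested, 5 were below 0 in 5 of 5 animals and none above (5.42% and 4.88% of all features). At an unadjusted p under 0.05, 4 lay on the lower side and 0 on the higher (2.70% and 3.42% of all features). Limma's adjusted threshold was passed by none of them. Their median was -0.014, and it was 0.020 on the forward and -0.057 on the swap arrays, so the list as a whole had no direction shared by the dye orientations.

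Other genes of the lower side were peptides, enzymes and pumps. Cort, cortistatin, is a peptide of cortical interneurons, and its ratio was -0.60, -0.21, -0.92, -0.46 and -0.81, a mean of -0.60 ± 0.28 (SD, n = 5). Its sprouting level was 9.16 to 9.67 and its non-sprouting level 9.62 to 10.48, overlapping only slightly. Bhmt, which remakes methionine from homocysteine, had a mean of -0.58, and Sod3, the extracellular superoxide dismutase, had -0.46. Atf5, a stress-linked transcription factor, had a mean of -0.43 with its farthest value, -1.04, in replicate 2. Stk39, a kinase that controls chloride cotransporters, had -0.42, Rapgef4, a cAMP-activated exchange factor, -0.35, and Atp1b2, a sodium pump subunit, -0.35. Ccdc171, which was named through a gene synonym and has no role given here, was the most even, at -0.30, -0.27, -0.43, -0.40 and -0.49. Its sprouting channel read 6.61 to 7.02 and its non-sprouting channel 6.88 to 7.50.

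Genes of cholesterol synthesis had small negative list medians in every animal. Neurons and glia make cholesterol inside the brain from acetyl-CoA, in a chain that runs from Hmgcs1 and the mevalonate steps through squalene to the sterols, and the sensor pair Scap and Insig1 sets its activity. Of 32 genes in the list 30 were tested. In all 5 animals 10 were below 0 and 0 above (5.42% and 4.88% of all features). Past the unadjusted threshold there were 10 on the lower side and 0 on the higher (2.70% and 3.42% of all features), and none passed limma's adjusted threshold. The list median was -0.17, -0.11, -0.10, -0.089 and -0.091 in replicates 1 to 5, and -0.091 over animals, against -0.002 for all features. Replicate 1 was the lowest and stood apart from the other animals.

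The steps can be followed along the chain. Hmgcs1, which makes the precursor of mevalonate, had ratios of -0.39, -0.40, -0.29, -0.12 and -0.36, a mean of -0.31 ± 0.12 (SD, n = 5). The thiolase Acat2 had -0.28 with 1 animal above 0 (0.051 in replicate 2), and the mevalonate-pathway enzymes Pmvk and Fdps had -0.14 and -0.10. Sqle, squalene epoxidase, which adds oxygen to squalene, had -0.43, -0.58, -0.24, -0.13 and -0.36, a mean of -0.35 ± 0.17 (SD, n = 5).

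Of the sterol-forming steps, Lss, which closes the sterol ring, had a mean of -0.13. Cyp51, the lanosterol demethylase, had -0.32, -0.455, -0.23, -0.19 and -0.35, and Msmo1, which removes further methyl groups, had -0.14, -0.42, -0.10, -0.155 and -0.25. Nsdhl and Sc5d had means of -0.175 and -0.22, and the sensors Scap and Insig1 had -0.24 and -0.16. Of these, Nsdhl alone had an animal above 0. Replicate 2 was the lowest animal for Sqle, Cyp51, Msmo1 and Sc5d, while replicate 1 was the lowest for Scap and Insig1, so no single animal set the list.

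**Figure D3:**
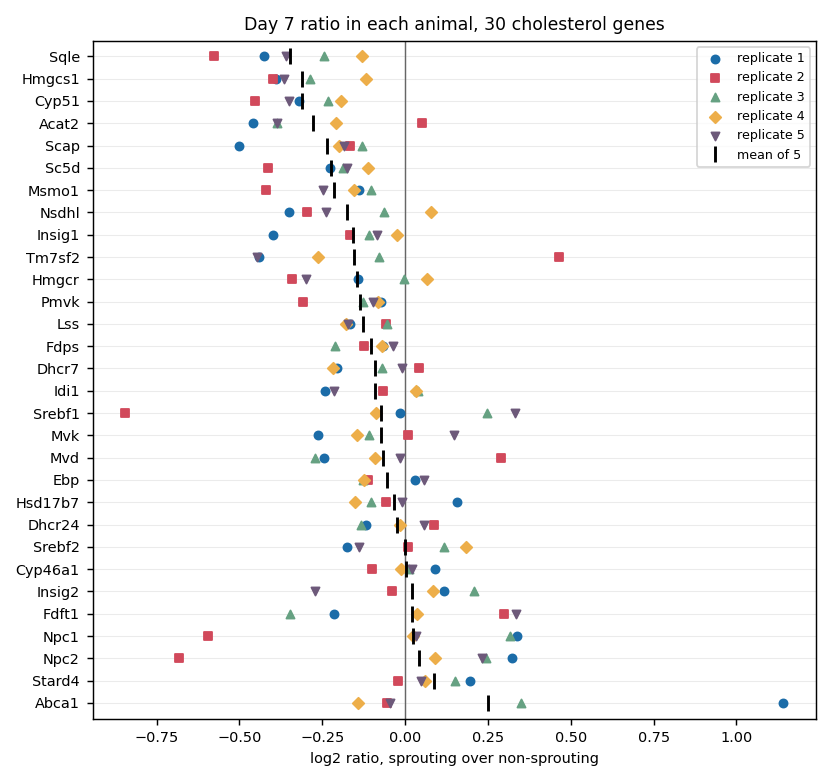
Log2 ratio of sprouting over non-sprouting neurons (horizontal axis) in each animal for the 30 cholesterol genes tested, ordered by their mean (bar). The 7 genes from Sqle to Msmo1 lie left of 0 in all animals except Acat2 in replicate 2, and 10 genes of the list do so in all 5.

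The level of the list depended on how bright probes were treated. With all features put in 4 bins by brightness, the brightest bin of 7770 held 19 of the 30 genes. With each array centred on its median in place of the loess curve, the list median was -0.247, while the brightest bin of all features stood at -0.166 and the dimmest at 0.075. Under loess the brightest bin had a median of -0.000489. The list was below 0 under both, as it was on the forward arrays (-0.088) and on the swap arrays (-0.091). Within scan batches, of which replicate 1 forms the first, replicates 2 and 3 the second, and replicates 4 and 5 part of the third, it was -0.17, -0.13 and -0.086.

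Hmgcs1 and Msmo1 are shown with the 250 bases before their starts because promoters of this pathway are known for CCAAT boxes, the site of factor NF-Y, beside sterol elements. Capitals mark CCAAT on the printed strand or ATTGG where the box lies on the other. The stretches are chr16:29746863-29747112 for Msmo1 and chr2:53382054-53382303 for Hmgcs1, both on the plus strand of GRCr8 in RefSeq.

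Msmo1: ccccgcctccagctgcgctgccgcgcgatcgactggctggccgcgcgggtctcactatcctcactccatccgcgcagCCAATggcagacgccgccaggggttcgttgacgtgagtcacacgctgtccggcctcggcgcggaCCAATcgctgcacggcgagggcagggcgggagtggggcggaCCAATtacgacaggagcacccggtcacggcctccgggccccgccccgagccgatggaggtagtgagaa

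Hmgcs1: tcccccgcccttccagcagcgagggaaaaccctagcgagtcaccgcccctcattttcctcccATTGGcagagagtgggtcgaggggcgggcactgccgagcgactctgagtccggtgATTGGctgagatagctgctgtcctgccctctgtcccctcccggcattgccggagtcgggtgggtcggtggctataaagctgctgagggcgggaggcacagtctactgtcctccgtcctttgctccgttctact

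Msmo1 held 3 boxes and Hmgcs1 2, the latter on the opposite strand, and the marked boxes do not overlap each other. Over the 300 bases searched on both strands, CCAAT occurred in 19 of the 25 cholesterol promoters in the table (76%) and in 12549 of all 33469 (37.5%). In the retinoic acid list it occurred in 5 of 18 (27.8%). The sterol element core CACCCCAC was found in 1 of the 25 (4%) and in 902 of all promoters (2.7%). These are counts of letters, and nothing was measured at these promoters.

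The largest ratios of single animals belonged to genes of macrophages, of fibroblasts and of the choroid plexus, and they differed widely between animals. In replicate 1, Ccl2, a chemokine that draws monocytes, had a ratio of 6.96, with a level of 14.2 in the sprouting and 7.26 in the non-sprouting channel. Anxa1, an anti-inflammatory annexin, had at least 6.36, since its sprouting channel was saturated on 1 array. Col1a2, a fibrillar collagen chain, had 5.46 and Arg1, arginase, 5.38. The lowest were Ubd at -1.78, the interneuron peptide Sst at -1.65, Plac8 at -1.64 and the peptide Cartpt at -1.56. In replicate 2 the lowest were Sostdc1, a secreted inhibitor of BMP and Wnt signals, at -6.50 (7.84 against 14.3), Cltrn at -4.51, Anxa1 at -4.14 and the homeobox gene Msx1 at -3.56. Its highest after Spp1 were Lrp3 at 2.45 and Kifc2 at 2.25, but each rested on the forward array, at 4.45 and 4.46, with 0.445 and 0.0482 on the swap array, and Pnoc at 1.39.

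The other animals had smaller extremes. In replicate 3 Gpnmb, a glycoprotein of phagocytes, had 1.95, Lgals3, galectin 3, 1.42 and Slamf9 1.41, and the lowest were Cilp at -2.07, Rbp4 at -1.17, Cep97 at -1.11 and Igf2 at -1.05. The value of Cep97 rested mostly on the forward array, at -1.97, with -0.25 on the swap array. In replicate 4 C3h15orf48 had 3.24, Lgals3 2.94 and Anxa1 2.06, and the lowest were Kitlg at -0.90, Cyp26b1 at -0.88, Ucma at -0.72 and Cxcl13 at -0.72. In replicate 5 Igf2 had 1.68, S100a4 1.21, Prss22 1.18 and Col1a2 0.98, and the lowest were Ccn3 at -1.35, Ucma at -1.33, Mepe at -1.31 and Tac1 at -1.08. Spp1 was among the highest 4 in replicates 2, 3 and 4, and Ucma among the lowest 4 in replicates 4 and 5. Anxa1 had opposite signs in different animals, at 6.36, -4.14, -0.092, 2.06 and 0.85, and so did Igf2, at 2.65, -3.52, -1.05, 0.385 and 1.68.

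Large ratios were mostly seen in a single animal. A ratio beyond 1 in size was reached by 847 features in at least 1 animal and by 787 of them in exactly 1. Of the rest, 27 were beyond 1 in 1 direction and 33 in opposite directions. Higher ratios beyond 1 numbered 558, 75, 12, 21 and 6 in replicates 1 to 5, and lower ones 31, 204, 6, 0 and 8. Only 5 features were above 1 in at least 3 animals, namely Spp1, Gpnmb, S100a4, Slamf9 and Lgals3, and 0 were below -1 in at least 3. Apart from Spp1 these genes were below 0 in replicate 2, at -0.91 for Gpnmb, -1.75 for S100a4, -1.18 for Slamf9 and -2.76 for Lgals3. S100a4, a calcium-binding protein of motile cells, had 4.39, -1.75, 1.34, 2.03 and 1.21. These 5 genes were singled out after their values were seen.

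The features above 1 in replicate 1 can be followed into the other animals. In replicate 2 a value existed for 545 of them, with a median of -0.15, and 27.3% were above 0, against 54.5% of all features in that animal. In replicates 3, 4 and 5 their medians were 0.054, 0.10 and 0.038, and 62.9%, 68.5% and 60% were above 0, against 47.9%, 47.3% and 47.6% of all features. In replicate 2, 29 of them were below -1 and 3 above 1. In replicate 4, 20 were above 1, of the 21 features above 1 in that animal.

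Marker lists of other cell types also differed between these animals. Among 41 activated phagocyte genes the median was 2.50 in replicate 1, -0.23 in replicate 2, and 0.16, 0.27 and 0.051 in replicates 3, 4 and 5. Over animals it was 0.58, and without replicate 1 it was 0.044. In all 5 animals 5 genes were above 0 and 1 below (4.88% and 5.42% of all features). At unadjusted p under 0.05, 9 lay on the higher side and 0 on the lower (3.42% and 2.70% of all features). None passed limma's adjusted threshold. By scan batch the median was 2.50, -0.0175 and 0.15, so the sign did not hold in the second batch. Replicate 1 thus set the size of this list, and Spp1, Igf1, Tlr2 and Ctsk were above 0 in all animals. Ctsk, a collagen-cutting protease, had 4.91, 0.40, 0.16, 1.42 and 0.089, and its sprouting channel was saturated on both arrays of replicate 1, so 4.91 is a lower bound.

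The list of microglia and macrophage markers, which also holds phagocyte genes such as Cd68, gave less. The median of 22 such genes was 0.031, with -0.22 in replicate 2 and 0.043 to 0.15 in the others, and it was -0.02 with median centring. In all 5 animals 0 of the 22 were above 0 and 0 below. In replicates 3, 4 and 5, a subset chosen after the values were seen, 12 were above 0 and 0 below. Among all features the shares in that subset were 13.6% and 16.8%. All 22 were well above background on at least 8 of 10 arrays in both cell types. Aif1 was so on 10 of 10 arrays, with a level of 10.8 in the sprouting and 10.7 in the non-sprouting channel. Its ratios were 0.018, -0.515, 0.12, 0.30 and 0.24. The part of microglial RNA in the ratios of Spp1, Igf1 and Tlr2 was not tested.

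Most lists for other neighbours of the captured neurons had replicate 1 or 2 apart. A list of 22 fibroblast and meninges genes had a median of 1.5 in replicate 1 and -0.16 in replicate 2. One of 18 choroid plexus genes had -0.82 in replicate 2 and -0.10 to 0.009 in the others. Both lists were drawn up after the values were seen. The 22 oligodendrocyte genes had -0.71 in replicate 2 and 0.29 in replicate 3. Mbp, a myelin protein, was at -1.56 in replicate 2. The 24 endothelial and mural genes had 0.19 in replicate 1 and -0.094 to -0.029 in the others, and the 24 astrocyte genes had a median of -0.035. The 15 blood cell genes had 0.22 in replicate 1 and 0.024 to 0.044 in the others. The 54 matrix and protease genes had 0.64 in replicate 1 and -0.047 to 0.0066 in the others. How far such cells enter the ratios of single genes was not tested.

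**Figure D4:**
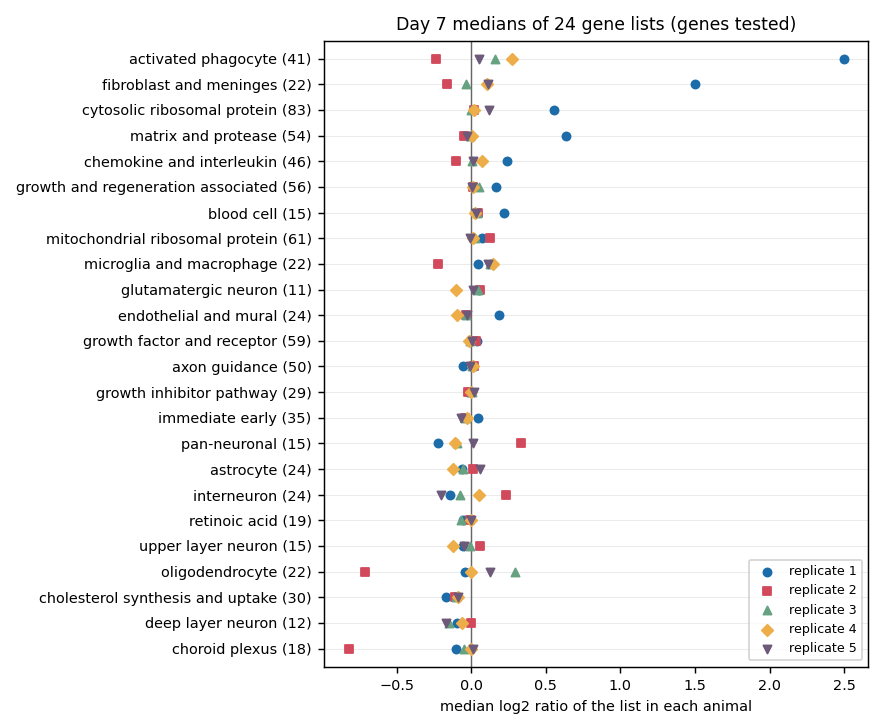
Median log2 ratio of 24 gene lists (horizontal axis) in each animal, with the number of genes tested in brackets. Replicate 1 stands apart for activated phagocyte, fibroblast and matrix genes, and replicate 2 for choroid plexus and oligodendrocyte genes. The cholesterol and deep layer lists lie left of 0 in all 5 animals, the latter at only -0.00033 in replicate 2. The blood cell list lies right of 0 in all 5.

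Neuronal markers were present in both pools, as the labels state. All 15 pan-neuronal genes tested were well above background on at least 8 of 10 arrays in both cell types. Their median ratio was -0.025, with -0.22 in replicate 1 and 0.33 in replicate 2. Rbfox3, the gene of the neuronal nuclear antigen NeuN, had a level of 11.1 in both channels and ratios of -0.22, 0.475, 0.018, -0.23 and 0.25. The 11 glutamatergic genes had a median of 0.012 and of -0.1 with median centring, and the 24 interneuron genes -0.037, with 0.24 in replicate 2. These lists had no direction shared by the animals. Syp, a synaptic vesicle protein, had -0.58, -0.29, -0.245, -0.038 and -0.000106, a mean of -0.23, and Cck, a peptide of interneurons and pyramidal cells, had 0.46, 0.40, 0.14, 0.22 and 0.044, a mean of 0.25.

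Layer markers leaned to 1 side in the deep layers. Of 12 deep layer genes tested, 11 had a mean below 0, while 48.7% of all features were above 0. In all 5 animals 2 were below 0 (5.42% of all features), and 2 lay past the unadjusted threshold on the lower side (2.70%). The list median was -0.11, and it was -0.097, -0.00033, -0.15, -0.061 and -0.17 in replicates 1 to 5. It stayed below 0 under every scaling tried, from -0.195 with median centring to -0.072. Fezf2, a transcription factor of subcortically projecting neurons, had -0.48, 0.11, -0.41, -0.17 and -0.24, and Tle4, a corepressor of the deepest cortical layer, had a mean of -0.13. The 15 upper layer genes had a median of -0.055, with 0.062 in replicate 2. Lamp5, a membrane protein of upper layers and of some interneurons, had -0.36, -0.21, -0.33, -0.25 and -0.42, a mean of -0.32.

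Genes tied to axon growth gave small values. Among 56 growth and regeneration associated genes the median was 0.045, and -0.049 with median centring, so it has no settled sign. In all 5 animals 6 were above 0 and 1 below, against 4.88% and 5.42% of all features. Past the unadjusted threshold 2 lay on the higher side and 0 on the lower, against 3.42% and 2.70% of all features. Stmn4, a stathmin of neurons that binds tubulin, had 0.47, -0.093, 0.49, 0.29 and 0.58, a mean of 0.345. The 29 growth inhibitor genes had a median of -0.008 and the 50 axon guidance genes -0.006. Lingo1, a coreceptor through which myelin limits growth, had 0.32, 0.042, 0.24, 0.17 and 0.31, and Atrx, a chromatin remodeller, had 0.51, 0.24, 0.37, 0.27 and 0.20. Lingo1 and Atrx were above 0 on all 10 arrays.

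Ribosomal proteins and other very bright probes met the ceiling of the scanner. A set of 162 features was saturated on more than 2 of 10 arrays. Its median was -0.11 on the forward and 0.36 on the swap arrays, and 48.1% of it was above 0 in all 5 animals, against 4.63% of the 30685 features never saturated. A single value was shared by Cltc, Chn1 and Rpl17 in replicate 3, each reading 0.21. The ratios of these probes follow the dye, and Cltc, Slc12a5, Stmn1, Hspa8 and Chn1 had negative means on the forward arrays (-0.089, -0.11, -0.057, -0.12 and -0.12). A further, never saturated probe of Stmn1 had a mean of 0.12 over both orientations and was above 0 in all 5 animals. That of Chn1 had -0.21 and was below 0 in all 5, opposite to the probe used. Those of Hspa8 had 0.030, -0.14 and 0.0072. The 83 cytosolic ribosomal genes, 19 of them in that set, had 0.55 in replicate 1 and -0.00011 to 0.12 in the others, with a median of 0.155 over animals and -0.003 with median centring.

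Mitochondrial ribosomal proteins, which were not saturated, also leaned to the higher side under loess. Of 61 genes tested, 12 were above 0 in all 5 animals and 0 below (4.88% and 5.42% of all features). Past the unadjusted threshold 7 lay on the higher side and 0 on the lower (3.42% and 2.70% of all features). Limma's adjusted threshold was passed by none. The list median was 0.074, 0.13, 0.023, 0.011 and -0.0098 in replicates 1 to 5, and 0.039 over animals. It was -0.096 with median centring, so its sign depends on the scaling. Mrpl58 had 0.28, 0.29, 0.14, 0.13 and 0.26, and Mrpl18 had 0.16, 0.17, 0.14, 0.21 and 0.14, with -0.0229 under median centring.

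Several probes of a gene often disagreed in size. A further tested probe existed 3144 times, for 2628 genes, and the signs of both mean ratios matched in 59.5% of these pairs, with r = 0.40 and a rank correlation of 0.29 across pairs, which share arrays and animals. By animal r was 0.60, 0.41, 0.305, 0.34 and 0.295 in replicates 1 to 5. Agreement in sign was 64.0% where the probe used had 1 sign in 5 animals (243 of 380), 66.5% where it lay past the unadjusted threshold (143 of 215), and 29 of 31 where it was beyond 0.5. Agreement was thus higher where the ratio was larger.

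For the 24 genes of the naming rule 11 further probes existed, and the means of all 11 had the same sign. Their median size was 0.074 against 0.52 for the probes used, taken over pairs. Spp1, Cyp26b1, Ucma, Cort and Ccdc171 were among the genes without a further tested probe. The further probes of Atp1b2 had means of -0.074 and -0.010, and the latter probe was above 0 in replicates 2, 3 and 5. Igf1 had 3 further probes, with means of 0.82, 0.035 and 0.0022, so a single one of them followed the probe used, at 2.55, 0.41, 0.73, 0.33 and 0.088 in replicates 1 to 5. The second Svil probe had 0.78, 0.23, 0.020, -0.071 and -0.15, and its mean was 0.16. The further probes of Bhmt, Stk39, Prrc2c and Rapgef4 had means of -0.098, -0.089, 0.072 and -0.055.

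Outside that rule, the second Hmgcs1 probe had a mean of 0.010 and ratios of 0.0017, 0.11, 0.018, -0.037 and -0.046, and did not show the lower signal of the first. Atrx had further probes at 0.080 and -0.12, and the latter was below 0 in all 5 animals, at -0.20, -0.13, -0.046, -0.057 and -0.16. The swing of Anxa1 was seen by both of its probes, the second reading 3.79, -2.42, 0.042, 1.02 and 0.20, and Col5a2, a collagen chain, had 3.57, 3.28 and 3.58 in replicate 1 on its 3 probes. Other large ratios were not shared by a further probe. Serping1, a complement inhibitor, had 2.62 and -1.39 in replicates 1 and 2 on the probe used and 0.0084 and -0.14 on the second, and Lrp3 had 2.45 in replicate 2 against 0.12. These genes were picked after their values were seen.

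**Figure D5:**
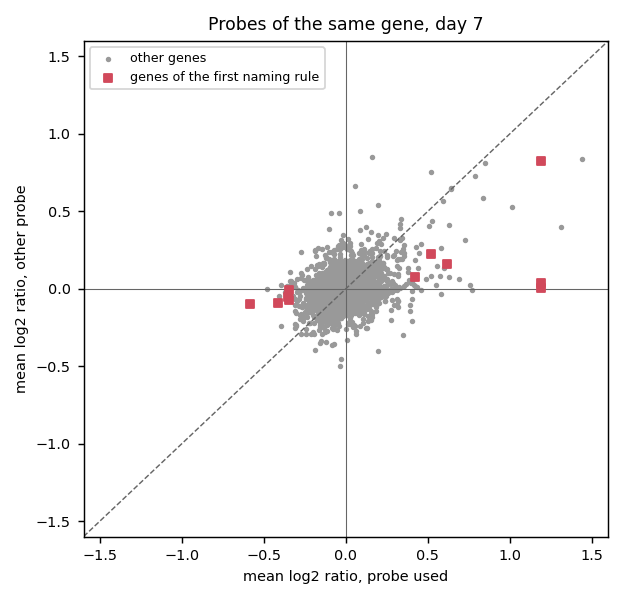
Mean day 7 log2 ratio of the probe used (horizontal axis) against each further tested probe of the same gene (vertical axis), 3144 pairs, with the diagonal dashed. Squares are the 11 pairs of genes named by the first rule, which share the sign but mostly lie nearer to 0 on the vertical axis.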

How the data were processed

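The 10 day 7 arrays were used, with the 10 day 21 arrays entering only the shared estimate of spread. Groups, dyes and animals came from the labels. Each array held 43628 spots, 2256 of them controls. Per the file headers, Agilent Feature Extraction 9.1.3.1 read the scans. The deposited values per spot include a mean and a background intensity, neither on a log scale. The deposited log10 ratio, which per the file headers carries Feature Extraction's own corrections, and the authors' deposited table of log2 ratios were alternatives. Its scaling and centring by the authors, and the genome build of the probes, were not given in the sources used here. Each day 7 column of the table matched its own array best (r of 0.900 to 1, slopes of 0.903 to 1.48, medians of 0.0073 to 0.0153, up to 450 values missing), and 20 further columns were not used.

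With limma 3.58.1 in R 4.3.3 (data.table, version 1.17.8, for joins), background was corrected by normexp (offset 50) and dyes by loess within each array, with controls at weight 0. Outlier spots were set to missing and saturated spots kept. Swap arrays were turned and averaged with the forward array, and both were needed for a value, so 2234 features lacked at least 1 animal. Channel levels followed Aquantile normalization between arrays. A probe entered the test if, for 1 cell type and 1 day, 3 or more animals had it well above background on the forward and the swap array (34225 of 41012 probes). Each gene was represented by its brightest probe. Probes were named through a RefSeq table by accession (10658), symbol (4647) or synonym (3885), 181 kept the file's name and 21641 had none. limma's lmFit and eBayes were fitted to 1 value per animal with a mean for each day, with Benjamini-Hochberg adjustment, and were tested on simulated data.

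The naming rule took, on each side, the 12 named features of largest mean with unadjusted p under 0.05, 1 sign on 10 arrays, both channels well above background on at least 8 arrays and saturation on at most 2. Of each list the 2 members of smallest p and any past 0.5 were eligible too, as were the 4 highest and 4 lowest features of each animal. Genes and gene lists were chosen with earlier results of these data known. Lists of choroid plexus and of fibroblast and meninges genes were added after the values were seen. List genes in the text were picked for their role, and not all of them were eligible by these rules. The cholesterol genes other than Sqle and Hmgcs1 lay outside the rules, as did Cyp26a1, Rxrg, Rbfox3, Aif1 and Mbp. Of the 24 genes, 2 are not reported here. Array precision is limited by the number of animals.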

Additional observations from a re-analysis of the deposited data

Results flagged for a closer look

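Each of 93 values, single genes and list medians, was compared across its 5 animals, and 18 had 1 animal whose gap to the nearest other exceeded 0.71 of the whole range (Dixon's critical value). About 1 in 20 independent groups of normal values would do so by chance. The 93 values share the same 5 animals, and some list medians hold genes that were also compared singly. The 18 are therefore not separate departures. Replicate 1 was the far animal in 11 of them and replicate 2 in 5.

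Replicate 1 was far from the others for the growth factor Igf1 (3.37, against 0.25 to 0.974), the kinase Melk (1.42, against 0.062 to 0.384), the polyamine enzyme Sat1 (1.44, against 0.0776 to 0.352) and the sterol sensor Scap (-0.502, against -0.2 to -0.13). Among list medians it was far for activated phagocytes (2.50, against -0.234 to 0.274), fibroblasts and meninges (1.5, against -0.163 to 0.112), matrix and proteases (0.638, against -0.0466 to 0.00658), cytosolic ribosomal proteins (0.554, against -0.000109 to 0.123), blood cells (0.220, against 0.024 to 0.044), endothelium (0.187, against -0.0943 to -0.0286) and cholesterol synthesis (-0.170, against -0.106 to -0.0886).

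Replicate 2 was far for the potassium channel subunit Kcnd2 (1.36, against 0.0438 to 0.383), the transcription factor Atf5 (-1.04, against -0.338 to -0.164) and the mevalonate enzyme Pmvk (-0.308, against -0.126 to -0.0718). It was also far in the medians of choroid plexus genes (-0.819, against -0.1 to 0.00896) and microglia genes (-0.221, against 0.0428 to 0.148). Replicate 3 was far for Aldh1a2 (-0.970, against -0.297 to -0.0277), and replicate 4 for the median of the glutamatergic genes (-0.104, against 0.0143 to 0.058). No cause of these distances was tested. No feature differed between day 7 and day 21 in limma's test of the difference, where the smallest adjusted p was 0.336.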

How the results depend on the processing

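Results were recomputed under 26 alternatives. No feature passed limma's adjusted threshold, except 1 without background correction, 1 in the authors' deposited table and 1 with arrayWeights (each time Ccdc171, adjusted p = 0.0158, 0.0469 and 0.0104), 13 with arrays entered singly (Spp1, Prrc2c and Cyp26b1 at 0.0043) and 15 on dye-swap arrays alone. Leaving out a replicate gave 0 each time. The 1904 features at unadjusted p under 0.05 became 3123 with median centring (30.2% on the higher side, against 55.9%), 868 with both channels above background on all arrays, which tests fewer features, 2990 with arrayWeights, 3574 on dye-swap arrays alone and 1424 to 1786 without a replicate. The pairing is within the animal and array, and with no replicate block the count was 137 (83.2% higher). Replicates 3, 4 and 5 alone, an alternative chosen after seeing the data, gave 994.

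The share of features with 1 sign in all animals, 10.3%, was 2.03% over arrays singly, 20.5% on dye-swap arrays, 15.5 to 18.9% without a replicate and 30.4% in replicates 3, 4 and 5. Of these, the shares over fewer animals or more arrays differ by construction. The cholesterol median stayed below 0 in every setting (-0.11 to -0.0808 without a replicate, -0.247 with median centring, -0.17 and -0.129 in scan batches 1 and 2). The phagocyte median was 0.0443 without replicate 1 and up to 0.765 without another, and 2.5 in scan batch 1. Of 24 list medians 18 to 22 kept their sign without a replicate and 12 in scan batch 2. Signs turned for Mrpl18 (-0.0229, median centring) and, on forward arrays alone, for the saturated Cltc (-0.0885), Slc12a5 (-0.108), Stmn1 (-0.0573), Hspa8 (-0.122) and Chn1 (-0.118). The 24 genes of the first naming rule kept their sign wherever they were tested, and 21 were tested under the strict filter. Their rule asked for 1 sign on all 10 arrays. Their sign was therefore fixed in advance wherever arrays or animals were only left out, and those settings are no check on it. Probe agreement was 59.1 to 63.7%. Causes not named were not tested.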

Other observations

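Genes of ion channels and transmitter receptors held members on both sides, with list medians near 0. Of 64 voltage-gated channel genes tested, 5 were above and 5 below 0 in all 5 animals. Of 36 glutamate receptor genes 3 were above and 1 below, and of 22 GABA and glycine receptor genes 2 were above and 3 below. Among all features 4.88% were above and 5.42% below 0 in all 5 animals. The medians were 0.014, -0.014 and -0.017. Kcnf1, a silent potassium channel subunit, had ratios of 0.28, 0.22, 0.074, 0.038 and 0.16 and was above 0 on all 10 arrays. Grin2b, an NMDA receptor subunit, had 0.15, 0.35, 0.16, 0.047 and 0.036. Gabra5, a subunit of extrasynaptic GABA receptors, had -0.41, -0.49, -0.16, -0.072 and -0.32 and was below 0 on all 10 arrays. None of these genes passed limma's adjusted threshold, and the smallest adjusted p among them was 0.69.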
